A study of Mus musculus with 47 samples.

Results

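Cck, Dpysl5, Sim2, Tmem255a and Chodl are 5 genes chosen by measured values, since their levels were among those furthest below the MyoD-/- level in muscle progenitors that also lacked Rbpj. All probes of these genes on the bead array were taken, which gave 1 probe for each gene. They are 5 of 16593 genes with a symbol on the array and 5 of the 8658 genes that passed the detection filter and were tested. They were selected on the difference between the Rbpj;MyoD mutant and the MyoD mutant, so that contrast is given below as a description, with no test. What is tested is whether the same 5 genes were also lower in the DnMaml;MyoD mutant and in the MyoD mutant itself.

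The study measured RNA from Vcam-1+/CD31-/CD45-/Sca1- progenitors sorted from the back muscle of mouse embryos at E17.5, with C57BL/6, 129/Sv and 129/Ola ancestry in every group. The Rbpj;MyoD mutant (Pax3cre/+;Rbpjflox/flox;MyoD-/-) had 7 arrays, counted as 6 samples. The DnMaml;MyoD mutant (Pax3cre/+;DnMamlflox/flox;MyoD-/-) had 8 arrays and 7 samples, and both of these groups also lack MyoD. The MyoD mutant (MyoD-/-) had 18 arrays and 16 samples. The MyoD heterozygote (MyoD+/-) had 4 arrays and 3 samples, and the wild type had 10 arrays and 9 samples. Cre is driven from the Pax3 locus, so recombination is limited to cells with a history of Pax3 expression. Both double mutants carry Pax3cre/+, and the genotype given for the MyoD mutant names no Cre. An effect of that allele therefore cannot be told apart from that of DnMaml or of Rbpj loss. No label tells 1 embryo per array from pooled embryos, so the p-values measure only the spread between these samples, which may be technical.

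Notch receptors, once cleaved, send an intracellular domain to the nucleus that binds the DNA-binding protein RBPJ and recruits the co-activator Mastermind. Without that domain RBPJ can hold its targets down together with co-repressors. Removing Rbpj therefore takes away both activities, whereas DnMaml, a truncated Mastermind, blocks activation and leaves RBPJ in place. In developing muscle, Notch signalling is known for keeping progenitors from differentiating, and MyoD is a basic helix-loop-helix factor that drives them towards differentiation.

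The 47 arrays lay on 7 chips. Chips 6 and 7 were joined position by position, which left 41 samples in 6 chip sets, and chip set was a term in every main fit. Array medians ran over 64.1 to 250 intensity units and 8761 to 11819 probes were detected per array at a detection p under 0.01. Chip sets 1 and 2 held the DnMaml;MyoD mutant, the MyoD mutant and the wild type but no Rbpj;MyoD array. Myod1, the gene deleted in every mutant, was lower in MyoD-/- than in wild type (log2 difference -1.93 ± 0.1 SE, limma adjusted p = 4.07e-16), yet its probe was detected in 47 of 47 arrays. The 3 Rbpj probes were detected in 0 of 47 arrays, so the Rbpj deletion could not be checked. Pax3 was detected in 0 of 47 arrays, and Pax7 and Myf5, defining progenitor markers, in 2 of 47 each.

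The letters upstream of the genes are shown because RBPJ and MyoD both bind DNA. RefSeq windows of 250 bases before the start were at hand for 4 of the 5 genes on GRCm38.p6, at chr9:121495695-121495944 for Cck on the minus strand, chr5:30711314-30711563 for Dpysl5 on the plus strand, chrX:38252482-38252731 for Tmem255a on the minus strand and chr16:78930698-78930947 for Chodl on the plus strand. Capitals mark TGGGAA, the core of the sequence RBPJ binds, on the strand printed.
Cck: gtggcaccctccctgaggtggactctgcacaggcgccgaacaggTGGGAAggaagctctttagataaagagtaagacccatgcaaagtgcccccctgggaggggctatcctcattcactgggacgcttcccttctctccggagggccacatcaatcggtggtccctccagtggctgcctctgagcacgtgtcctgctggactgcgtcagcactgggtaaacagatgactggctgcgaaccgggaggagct
Dpysl5: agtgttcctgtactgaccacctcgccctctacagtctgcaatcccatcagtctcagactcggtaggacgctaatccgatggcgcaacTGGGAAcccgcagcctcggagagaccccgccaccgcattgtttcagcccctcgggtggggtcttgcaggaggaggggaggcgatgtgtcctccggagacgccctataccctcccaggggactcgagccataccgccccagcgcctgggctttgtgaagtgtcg
Tmem255a: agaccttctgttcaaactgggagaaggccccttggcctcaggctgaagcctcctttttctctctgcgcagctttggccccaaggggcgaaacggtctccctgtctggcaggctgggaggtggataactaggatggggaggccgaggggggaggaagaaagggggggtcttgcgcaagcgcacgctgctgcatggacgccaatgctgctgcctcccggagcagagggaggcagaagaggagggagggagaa
Chodl: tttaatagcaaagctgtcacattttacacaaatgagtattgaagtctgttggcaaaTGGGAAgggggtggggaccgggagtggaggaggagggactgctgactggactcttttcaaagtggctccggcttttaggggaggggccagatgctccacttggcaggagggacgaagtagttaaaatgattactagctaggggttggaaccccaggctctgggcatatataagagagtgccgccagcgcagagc
No window was used for Sim2.

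Searched on both strands, TGGGAA was found in 3 of these 4 windows, against 21.6% of 32851 RefSeq windows of the same length. The matches lie at -206 to -201 in Cck, -163 to -158 in Dpysl5 and -194 to -189 in Chodl, counted back from the start. Extended by a leading G, GTGGGAA was in 1 of the 4 windows and in 5.4% of all windows. The E-box CANNTG, which basic helix-loop-helix factors such as MyoD bind, was in 3 of the 4 windows and in 66.2% of all. In each of the windows of Cck, Dpysl5 and Chodl an E-box overlaps the first 2 bases of the RBPJ core. The joined letters, CANNTGGGAA, were in 3 of the 4 windows and in 473 of the 32851, or 1.4%. The joined form was looked for only after the printed sequences had been seen, so its share is a description, and no match is shown here to be a bound site. Tmem255a had neither the core nor an E-box in its window.

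**Figure D1:**
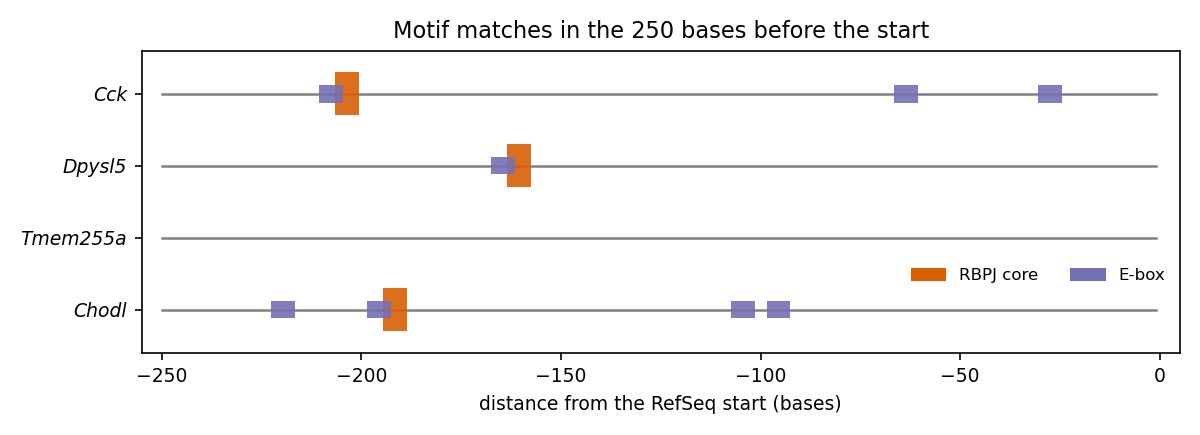
Matches to the RBPJ core (orange) and the E-box (violet), on either strand, in the 250 bases before the RefSeq start of 4 of the genes, by distance from that start in bases. Cck, Dpysl5 and Chodl each have 1 core match with an E-box overlapping it, and Tmem255a has no match.

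Cck encodes the precursor of cholecystokinin, a peptide that acts as a gut hormone and a neurotransmitter. In the 6 Rbpj;MyoD samples its log2 level was lowest at 6.5, had a median of 7.51 and was highest at 8.34. The DnMaml;MyoD samples had a lowest level of 8.43, a median of 8.84 and a highest of 9.45. MyoD-/- samples had a lowest level of 8.61, a median of 9.97 and a highest of 10.82. Over all chip sets the DnMaml;MyoD and MyoD-/- samples overlapped. Within each chip set that held both, every DnMaml;MyoD sample lay below every MyoD-/- sample. The Rbpj;MyoD samples lay below every sample of the other genotypes, a gap that the choice of the gene favours. The share of all genes that show either pattern was not counted. The MyoD+/- samples had 10.19, 10.73 and 10.54, and the wild type had a lowest level of 10.58, a median of 11.41 and a highest of 11.82. Cck was lower in the DnMaml;MyoD mutant than in the MyoD mutant by a log2 difference of -0.95 ± 0.16 SE (limma adjusted p = 7.91e-05). It was lower again in the MyoD mutant than in wild type, with a difference of -1.23 ± 0.15 SE (limma adjusted p = 1.17e-07). Both calls were kept in every alternative run, with adjusted p up to 0.0469 and 0.0118.

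Chodl encodes chondrolectin, a membrane protein with a C-type lectin domain that is found in muscle and in motor neurons. Its log2 level in the Rbpj;MyoD samples was lowest at 9.34, with a median of 10.42 and a highest of 10.59. In the DnMaml;MyoD samples the lowest was 10.12, the median 10.99 and the highest 11.27. In MyoD-/- samples the lowest was 10.99, the median 11.99 and the highest 12.49. Chodl was the gene for which the DnMaml;MyoD samples came closest to the Rbpj;MyoD samples, and these groups overlapped. The MyoD+/- samples had 13.26, 12.97 and 12.86, above every MyoD-/- sample, and the wild type ran over 12.43 to 13.03 with a median of 12.72. The DnMaml;MyoD mutant was below the MyoD mutant by a log2 difference of -1.17 ± 0.15 SE (limma adjusted p = 4.65e-07). The MyoD mutant was below wild type by -0.79 ± 0.14 SE on the same scale (limma adjusted p = 4.3e-05). Chodl kept both calls in every alternative run.

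Tmem255a encodes a membrane-spanning protein. The Rbpj;MyoD samples had a lowest log2 level of 8.41, a median of 9.27 and a highest of 9.48. The DnMaml;MyoD samples had a lowest of 9.8, a median of 9.99 and a highest of 10.86. MyoD-/- samples had a lowest of 10.24, a median of 11.06 and a highest of 11.49. The Rbpj;MyoD samples stood apart from all others, which the choice of the gene favours. The share of all genes that show this was not counted. Over all chip sets, 2 DnMaml;MyoD samples, on chip sets 4 and 6+7, lay inside the MyoD-/- range. Each of them lay below the MyoD-/- samples of its own chip set. In MyoD+/- samples the levels were 11.57, 11.56 and 10.98, and in wild type they ran over 10.72 to 11.42 with a median of 11.28, so that MyoD-/- and wild type samples overlapped widely. Tmem255a was lower in the DnMaml;MyoD mutant than in the MyoD mutant, by a log2 difference of -0.83 ± 0.14 SE (limma adjusted p = 7.22e-05). Between the MyoD mutant and wild type the difference was -0.28 ± 0.13 SE, with a 95% interval of -0.55 to -0.02 and a limma adjusted p of 0.117, and it passed the threshold without MyoD mutant replicate 4 (adjusted p = 0.0413).

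Dpysl5 encodes a member of the collapsin response mediator family, cytoplasmic proteins of axon growth. Its log2 level in the Rbpj;MyoD samples was lowest at 5.98, with a median of 6.43 and a highest of 7.19, and the probe was detected in 3 of the 7 arrays. In the DnMaml;MyoD samples the lowest was 7.48, the median 7.56 and the highest 8.17. MyoD-/- samples had a lowest of 7.7, a median of 8.54 and a highest of 9.56. Dpysl5 is the only one of the 5 genes that dropped out of detection in any array, the other genes being detected in all 47, so "lowered" describes the set better than "lost". The MyoD+/- samples had 9.1, 8.81 and 8.8, and the wild type ran over 8.74 to 9.28 with a median of 9.05. Every DnMaml;MyoD sample lay below every wild type sample, as was also so for Cck, Chodl and Sim2. The share of all genes that show this was not counted. Over all chip sets, MyoD-/- samples lay on both sides of the wild type range. The value above that range, 9.56, was on chip set 3, which held no wild type sample. On each chip set with both genotypes, every MyoD-/- sample lay below every wild type sample. The log2 difference of the DnMaml;MyoD mutant against the MyoD mutant was -0.65 ± 0.15 SE (limma adjusted p = 0.00303). That call was lost without chip set 2 (adjusted p = 0.0508) and on chip sets 4, 5 and 6+7 alone (adjusted p = 0.069). The MyoD mutant was below wild type by -0.66 ± 0.14 SE (limma adjusted p = 0.000547).

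Sim2 encodes a transcription factor of the basic helix-loop-helix PAS family. The Rbpj;MyoD samples had a lowest log2 level of 7.2, a median of 7.83 and a highest of 9.23. The DnMaml;MyoD samples had a lowest of 8.75, a median of 9.9 and a highest of 10.03. MyoD-/- samples had a lowest of 9.74, a median of 10.19 and a highest of 11.05. For this gene, over all chip sets, the lowest DnMaml;MyoD sample, on chip set 5, lay within the Rbpj;MyoD range. Most of the others lay within the MyoD-/- range. The Rbpj;MyoD sample above 8.75 was on chip set 3, which held no DnMaml;MyoD array, and that of chip set 5 was at 7.2. Within chip sets, only the DnMaml;MyoD sample of 6+7 was not below the MyoD-/- samples. The MyoD+/- samples had 10.31, 10.46 and 10.58, and the wild type ran over 10.35 to 11.26 with a median of 10.57. The log2 difference of the DnMaml;MyoD mutant against the MyoD mutant was -0.64 ± 0.18 SE (limma adjusted p = 0.0163). Of the 5 calls in this comparison this one was lost in the most alternatives, 7 of 43. It did not pass without chip set 1, 2 or 5 (adjusted p = 0.118, 0.143 and 0.107), without replicate 3 or 6 of the DnMaml;MyoD mutant (adjusted p = 0.0525 and 0.0735), on chip sets 4, 5 and 6+7 alone (adjusted p = 0.11) and with no chip term (adjusted p = 0.0505). The MyoD mutant differed from wild type by -0.39 ± 0.17 SE, with a 95% interval of -0.72 to -0.05 and a limma adjusted p of 0.0873. It passed the threshold without wild type replicate 3 (adjusted p = 0.0417), without MyoD mutant replicate 4 (adjusted p = 0.0482) and with every array as its own replicate (adjusted p = 0.0367).

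**Figure D2:**
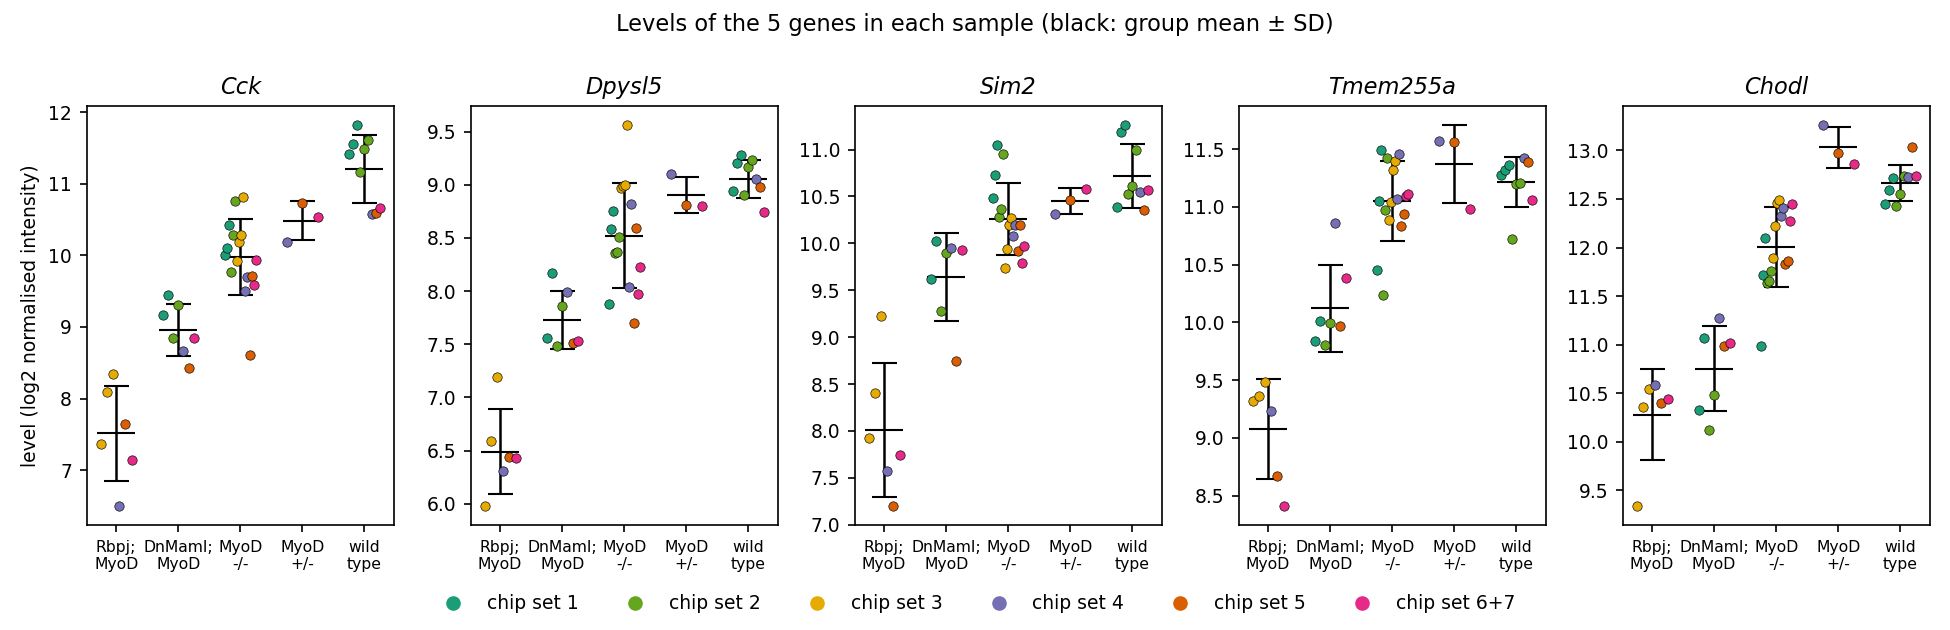
Level of each gene (log2 normalised intensity) in each of the 41 samples, by genotype, with points coloured by chip set and bars for the group mean ± SD. The Rbpj;MyoD samples have the lowest mean in every panel and the DnMaml;MyoD samples the next lowest. The choice of the genes puts the Rbpj;MyoD samples below the MyoD-/- samples. Since it used arrays of both groups, it also favours DnMaml;MyoD lying between them.

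The contrast that chose the genes is given for its size only. Against the MyoD mutant, the Rbpj;MyoD mutant had log2 differences of -2.39 ± 0.17 SE for Cck, -2.15 ± 0.16 for Dpysl5, -2.14 ± 0.19 for Sim2, -2.1 ± 0.15 for Tmem255a and -1.9 ± 0.16 for Chodl. These held ranks 1, 2, 3, 5 and 8 among 8658 genes, of which 9.92% were called lower. The genes in between were Ptprv at -2.11, Alas2 at -2.09 and Ntn5 at -2.09. Just outside lay Mip at -1.89, Sptb at -1.85 and Dusp26 at -1.82. Mip and Sptb were detected in no Rbpj;MyoD array, so their values are bounded as at least 1.96-fold and at least 1.55-fold lower, taking the lowest detected signal of each array as the floor. Several others were detected in part of the 7 Rbpj;MyoD arrays only, Dpysl5 and Alas2 in 3, Ptprv in 2 and Dusp26 in 1, so their differences and ranks rest partly on signal not above background. With the same floor Dpysl5 was at least 3.38-fold lower, Ptprv 2.22-fold, Alas2 1.8-fold and Dusp26 1.73-fold. Against DnMaml the same group differed by -1.44 ± 0.21 SE for Cck, -1.5 ± 0.2 for Dpysl5, -1.5 ± 0.23 for Sim2, -1.27 ± 0.18 for Tmem255a and -0.73 ± 0.19 for Chodl on the log2 scale. Chodl had the smallest of these differences. In these sorted bulk samples, fewer cells expressing a gene and less RNA per cell cannot be told apart, here and in every comparison below.

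All 5 genes were also called lower in the DnMaml;MyoD mutant than in the MyoD mutant, against 3.42% of 8658 genes. By the genotypes given, these groups differ in Pax3cre/+ as well as in DnMaml, and the part of each cannot be told apart. Their differences, -0.64 to -1.17, were smaller than those of the Rbpj;MyoD mutant against the same MyoD-/- arrays, which both comparisons share. Among all falls in this comparison Chodl ranked 12, Cck 26, Tmem255a 38, Dpysl5 92 and Sim2 102. Within chip sets, Cck, Chodl, Tmem255a and Dpysl5 were lower in the DnMaml;MyoD samples in 5 of 5, and Sim2 in 4 of 5, with a difference of 0.05 on chip set 6+7. Because the choice of the genes rests on MyoD-/- arrays that also enter this fit, the comparison was repeated on chip sets 1 and 2, which held no Rbpj;MyoD array. Their 6 MyoD-/- samples also entered the fit that chose the genes, so the repeat is not independent of the choice. Without them, in a fit on the other chip sets that was added after seeing the data, the 5 genes held ranks 1 (Cck), 2 (Dpysl5), 5 (Tmem255a), 6 (Sim2) and 10 (Chodl) in the contrast that chose them. On chip sets 1 and 2, 4 of 5 were called lower, against 0.647% of the genes. Cck differed by -1.03 ± 0.18 SE (limma adjusted p = 0.00547) and Chodl by -1.15 ± 0.2 (adjusted p = 0.00449). Tmem255a differed by -1.03 ± 0.22 (limma adjusted p = 0.0151) and Sim2 by -0.94 ± 0.2 (adjusted p = 0.0197). Dpysl5 differed by -0.64 ± 0.17 SE, short of the threshold (limma adjusted p = 0.0627). The DnMaml group had 4 samples on these chips, and single samples changed calls. Without its replicate 1, Sim2 and Tmem255a had adjusted p of 0.0835 and 0.0659 and Dpysl5 0.0395, without replicate 3 Sim2 and Tmem255a had 0.0857 and 0.0534, and without MyoD mutant replicate 1 Dpysl5 had 0.0108.

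Loss of MyoD alone lowered part of the set. The MyoD-/- arrays, those of chip sets 1 and 2 among them, also entered the contrast that chose the genes. That choice favours high MyoD-/- levels and so smaller falls from wild type. In the MyoD mutant against wild type, 3 of 5 genes were called lower (Cck, Chodl and Dpysl5), against 11.4% of all genes. Sim2 and Tmem255a did not pass, with the values given above, and their intervals do not show that they were the same in both genotypes. On chip sets 1 and 2 the same 3 genes were called lower, against 7.01% of genes. Cck differed there by -1.29 ± 0.17 SE (limma adjusted p = 0.000145), Chodl by -0.94 ± 0.18 (adjusted p = 0.00289) and Dpysl5 by -0.71 ± 0.15 (adjusted p = 0.00665), while Sim2 was at -0.19 ± 0.18 and Tmem255a at -0.25 ± 0.19. Within chip sets, MyoD-/- samples were below wild type in 5 of 5 for Cck, Chodl, Dpysl5 and Sim2, and in 4 of 5 for Tmem255a. The DnMaml;MyoD mutant against wild type spans both steps, and all 5 genes were called lower there, against 11.3% of genes, by -2.18 ± 0.17 SE for Cck, -1.96 ± 0.16 for Chodl, -1.32 ± 0.16 for Dpysl5, -1.11 ± 0.15 for Tmem255a and -1.03 ± 0.19 for Sim2 (largest limma adjusted p = 8.4e-05). These 5 calls were kept in all 36 alternatives run. Neither the DnMaml;MyoD nor the wild type arrays belong to the contrast that chose the genes. They share with it only the chip set term and the estimate of the spread.

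**Figure D3:**
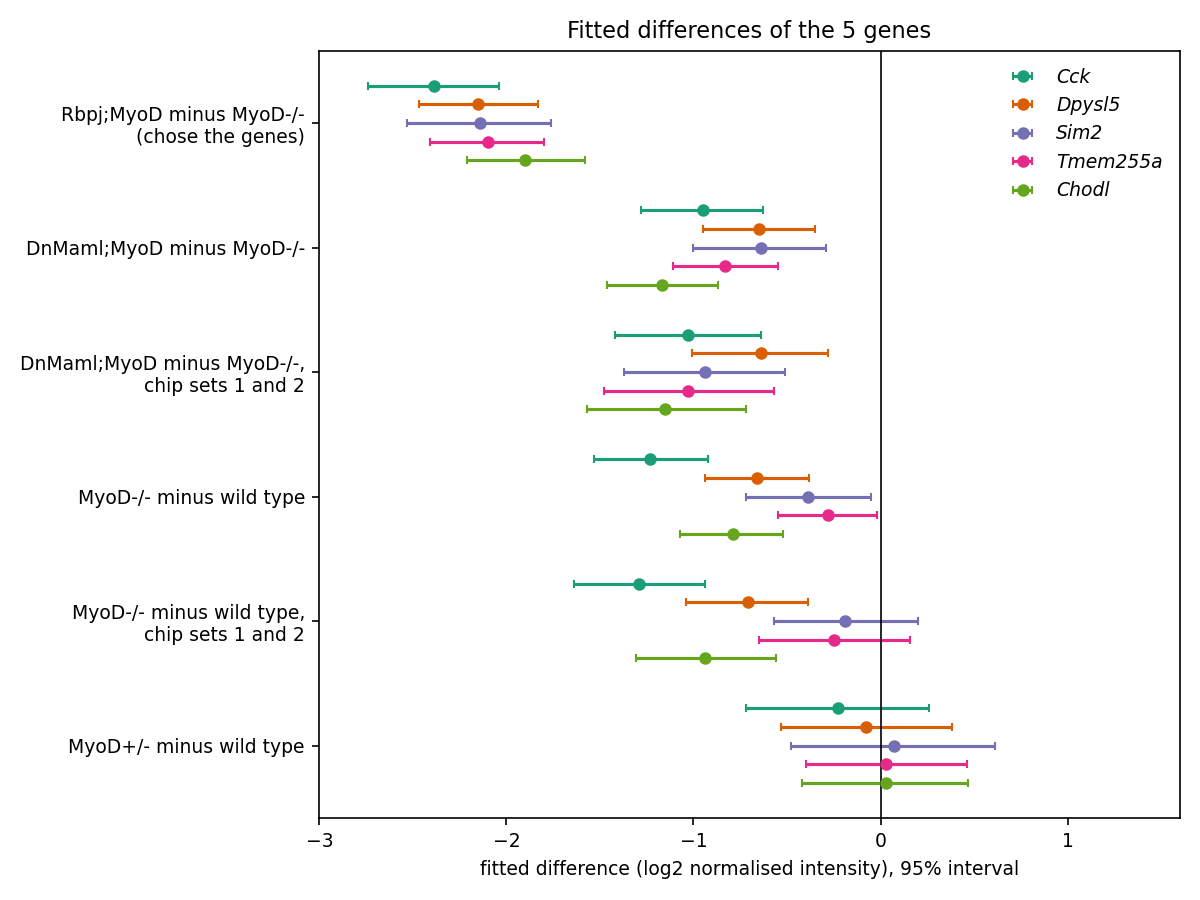
Fitted log2 differences of the 5 genes with 95% intervals, tested genotype minus its comparator, over all chip sets and on chip sets 1 and 2. The first group of points chose the genes, and the intervals for MyoD+/- minus wild type all include 0.

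With 1 MyoD allele left, no gene of the set was called different from wild type. The log2 differences were -0.23 for Cck (95% interval -0.72 to 0.26), -0.08 for Dpysl5 (-0.53 to 0.38), 0.07 for Sim2 (-0.48 to 0.61), 0.03 for Tmem255a (-0.4 to 0.46) and 0.03 for Chodl (-0.42 to 0.47). With limma, 0 of 8658 genes passed in this comparison and 314 had an unadjusted p under 0.05. The 3 heterozygous samples leave intervals wide enough to hold a change as large as that of Sim2 or Tmem255a between MyoD-/- and wild type.

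On the 3 chip sets that hold every genotype, the order was Rbpj;MyoD lowest, then DnMaml;MyoD, then MyoD-/-, then wild type in 3 of 3 for Cck, Dpysl5 and Chodl. For Sim2 and Tmem255a it held in 2 of 3. Sim2 broke it between DnMaml;MyoD and MyoD-/-, and Tmem255a between MyoD-/- and wild type, each on 1 chip set. The genes were chosen on arrays of these chip sets, which puts Rbpj;MyoD below MyoD-/- and favours it as lowest. The order is therefore a description, and the share of all genes that show it was not counted. Each level rests on 1 sample per chip set, or 2 for MyoD-/-, and MyoD+/- was left out of the order.

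**Figure D4:**
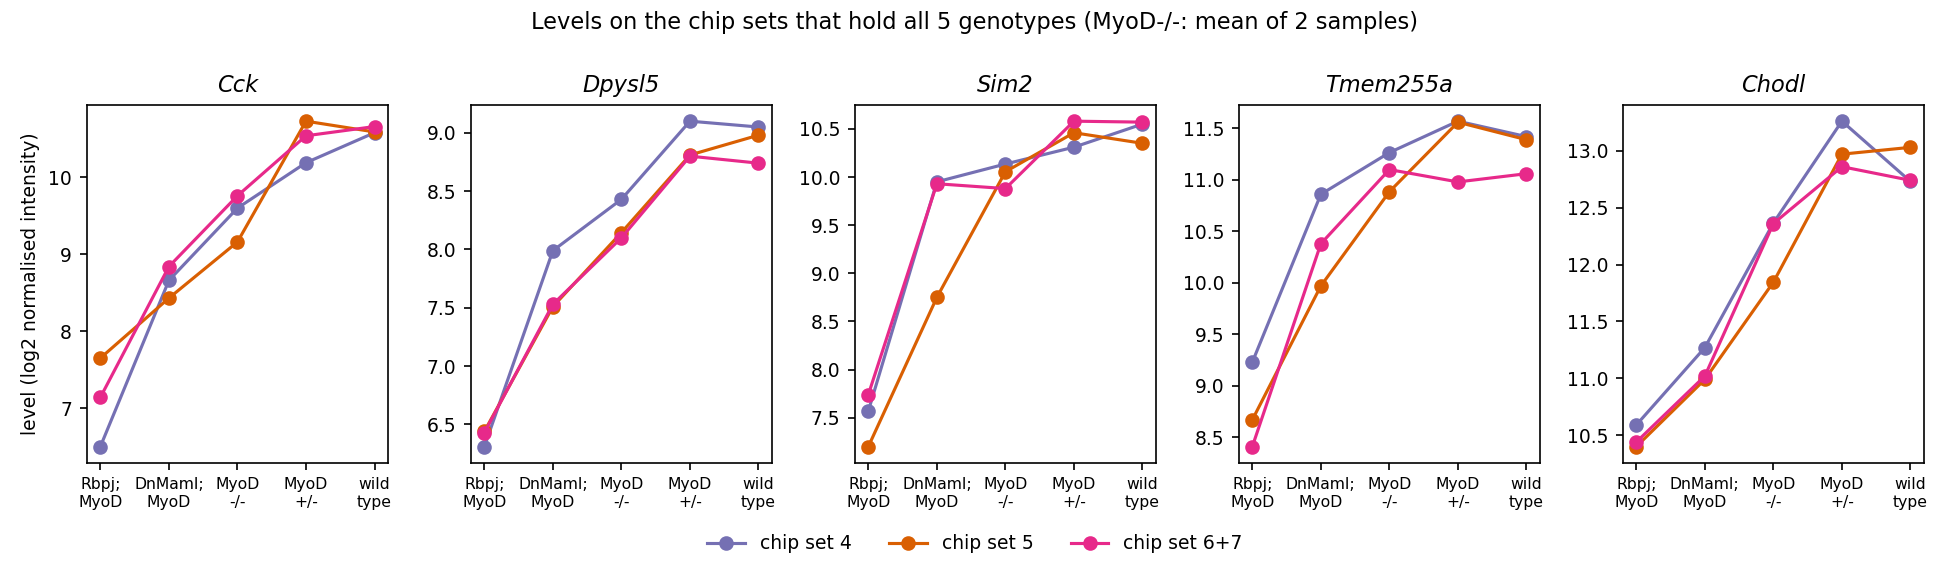
Levels (log2 normalised intensity) on chip sets 4, 5 and 6+7, each line joining the genotypes of 1 chip set, with the mean of 2 MyoD-/- samples. With MyoD+/- left aside, Cck, Dpysl5 and Chodl climb in the order Rbpj;MyoD, DnMaml;MyoD, MyoD-/-, wild type on all 3 chip sets. The choice of the genes favours Rbpj;MyoD as lowest. MyoD+/- lies above wild type for these genes on some chip sets and below it on others.

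Across the 41 samples, with chip set means removed, the 5 genes varied together, with Pearson r between 0.773 (Sim2 and Chodl) and 0.925 (Cck and Dpysl5). The samples share genotypes, so these values describe the group differences above and carry no test. By the same measure the tested genes most like Chodl were Parm1 (r = 0.951), Ntn5 (0.93) and Ank1 (0.928). Those most like Cck were Parm1 (0.928), Dpysl5 (0.925) and Itga7 (0.922), the last an integrin chain of muscle cells. Dpysl5 was closest to Cck (0.925), Parm1 (0.916) and Prkcq (0.915). Sim2 was closest to the homeobox gene Cux1 (0.936), then Tmem255a (0.913) and Cck (0.877), and Tmem255a to Sim2 (0.913), Cux1 (0.912) and Parm1 (0.911).

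Known Notch targets give the pathway's own readout in the same samples. Of 9 listed, 6 were tested, and 5 of these were called lower in the DnMaml;MyoD mutant than in the MyoD mutant, against 3.42% of all genes. Among them were Notch3 by -1.33 ± 0.13 SE (limma adjusted p = 4.42e-09) and the repressor Hey1 by -1.16 ± 0.14 (adjusted p = 1.64e-07). Nrarp, a feedback inhibitor, was at 0.02 ± 0.21. Its probe was detected in only 4 of 8 DnMaml;MyoD and 6 of 18 MyoD-/- arrays, so a fall could hardly have been seen. The list's median was -0.98 (-0.7 with Heyl at its bound, since Heyl was detected in no DnMaml;MyoD array), against -0.01 over all genes. In the MyoD mutant against wild type 5 of 6 were called lower, against 11.4% of all genes, with a list median of -1.31. Notch3 was lower there by -1.46 ± 0.12 SE (limma adjusted p = 1.25e-11) and Hey1 by -1.2 ± 0.13 (adjusted p = 6.35e-09). In the comparison of the Rbpj;MyoD with the DnMaml;MyoD mutant the targets had values on both sides of 0. There limma called 0 of 6 (2.34% of all genes were called lower and 1.59% higher), none had an unadjusted p under 0.05, and Notch3 was at 0.23 (95% interval -0.1 to 0.57) and Hey1 at 0.19 (-0.18 to 0.56). The 5 genes had values of -0.73 to -1.5 there, but they were chosen on arrays of this contrast, so the gap between both sets was not tested. Heyl was detected in 0 of 7 Rbpj;MyoD arrays and 0 of 8 DnMaml;MyoD arrays, and its level against wild type was at least 4.51-fold and at least 4.63-fold lower in these mutants.

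Relatives of the 5 genes were taken from lists. Among receptors and processing enzymes of cholecystokinin, 3 of 10 were tested (Pam, Tpst1 and Tpst2) and limma called 0 in either tested comparison. At an unadjusted p under 0.05 there were 0 in the DnMaml;MyoD mutant against the MyoD mutant and 1 in the MyoD mutant against wild type. The receptor genes Cckar and Cckbr did not pass the detection filter. Of the collapsin response mediator and semaphorin genes, 9 of 13 were tested. Dpysl3, a relative of Dpysl5, was higher in the DnMaml;MyoD mutant than in the MyoD mutant by 1.02 ± 0.16 SE (limma adjusted p = 2.68e-05), where 5.39% of genes were called higher, and higher in the MyoD mutant than in wild type by 0.68 ± 0.15 (adjusted p = 0.00105). Dpysl4 was lower in the MyoD mutant than in wild type by -0.82 ± 0.11 SE (limma adjusted p = 3.59e-07), as was the semaphorin receptor Plxna2 by -0.55 ± 0.09 (adjusted p = 1.4e-05), and Cdk5r1 was higher by 0.43 ± 0.1, where 10.7% of genes were called higher. This list had a median of 0.07 in the first comparison and 0 in the second. Of the PAS-domain relatives of Sim2, 6 of 15 were tested. In the DnMaml;MyoD mutant against the MyoD mutant limma called 0, with 2 at an unadjusted p under 0.05, and in the MyoD mutant against wild type Hif1a and its partner Arnt were higher by 0.5 ± 0.11 and 0.29 ± 0.1. Of the C-type lectin relatives of Chodl 3 of 5 were tested, and Thbd, thrombomodulin, was higher in the DnMaml;MyoD mutant by 1.01 ± 0.28 SE (limma adjusted p = 0.0192) and in the MyoD mutant by 1.16 ± 0.27 over wild type (adjusted p = 0.00163). Tmem255b, the relative of Tmem255a, had no probe.

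Of 17 other myogenic regulators 12 were tested. In the DnMaml;MyoD mutant against the MyoD mutant 2 were called higher, Myog, the differentiation factor myogenin, by 1.38 ± 0.22 SE (limma adjusted p = 3.59e-05) and Mef2c by 0.8 ± 0.17 (adjusted p = 0.0011). Msc, a helix-loop-helix repressor, was lower by -0.7 ± 0.07 SE (limma adjusted p = 2.34e-08). In the MyoD mutant against wild type Myog was lower by -1.23 ± 0.21 SE (limma adjusted p = 3.22e-05) and Eya1, Myf6 and Mef2a were higher by 0.75 ± 0.17, 0.58 ± 0.18 and 0.39 ± 0.14. Myog therefore went the opposite way from the 5 genes in the DnMaml;MyoD mutant and the same way as Cck, Chodl and Dpysl5 in the MyoD mutant.

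Markers of the sorted cells and of other cell types moved with the genotypes too, and their part in the results was not tested. Of 8 tested progenitor markers, 3 were lower in the DnMaml;MyoD mutant than in the MyoD mutant (Itga7 by -0.93 ± 0.12 SE, Msc and Cxcr4) and Des was higher. The log2 summed level of this list ran over 15.24 to 15.66 in Rbpj;MyoD samples, 15.39 to 15.92 in DnMaml;MyoD samples, 15.76 to 16.19 in MyoD-/- samples and 15.77 to 16.01 in wild type samples. In this comparison all 3 tested Schwann and neural crest markers were higher, Mbp by 2.45 ± 0.27 SE, Ednrb by 2.31 ± 0.25 and Ngfr by 0.92 ± 0.19, and the list's sum ran over 11.14 to 12.76 against 9.49 to 10.31. Of 4 tested neuronal markers Gap43 was higher, by 0.95 ± 0.11, while Tubb3, Nefl, Snap25, Syt1, Elavl3, Elavl4, Rbfox3 and Chat did not pass the filter. Of 8 fibroblast markers Dcn was higher, by 0.56 ± 0.18, with sums of 15.57 to 16.34 against 15.04 to 16.3. Among endothelial markers Egfl7 was higher by 0.47 ± 0.09, and among smooth muscle markers Acta2 was higher by 0.44 ± 0.12 and Tagln lower by -1.02 ± 0.15. With limma 0 of 3 erythroid markers and 0 of 1 leukocyte marker passed, and 0 had an unadjusted p under 0.05.

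In the MyoD mutant against wild type markers went both ways. Of the 8 progenitor markers Vcam1, the sort marker, Sdc4 and Met were higher (0.7 ± 0.11, 0.59 ± 0.12 and 0.62 ± 0.21), and Itga7 and Megf10 were lower (-0.79 ± 0.11 and -0.92 ± 0.08). Of the other lists Gap43 and the fibroblast marker Osr2 were higher, by 1.18 ± 0.1 and 1.08 ± 0.11, and Ngfr, Egfl7, Acta2 and Tagln were lower, by -0.51 ± 0.17, -0.63 ± 0.09, -0.65 ± 0.11 and -0.78 ± 0.14. The fibroblast sum ran over 15.04 to 16.3 in MyoD-/- samples and 14.79 to 15.84 in wild type samples. In the contrast that chose the genes, the Rbpj;MyoD samples had fibroblast sums of 15.91 to 16.65 and erythroid sums of 12.23 to 14.06, against 15.04 to 16.3 and 13.21 to 15.61 in MyoD-/- samples. Their neuronal sums were 10.92 to 11.77 against 9.92 to 10.82, and their Schwann and neural crest sums 10.25 to 11.32 against 9.49 to 10.31. The neuronal and progenitor sums did not overlap between these genotypes. In that contrast, where 10.2% of all genes were called higher, 7 of 8 fibroblast, 3 of 4 neuronal, 1 of 3 Schwann and neural crest, 1 of 4 smooth muscle and 1 of 8 progenitor markers were called higher. Lower calls took in 6 of 8 progenitor, 2 of 3 erythroid and 2 of 4 smooth muscle markers, and limma called 0 of 5 endothelial markers and 0 of 1 leukocyte marker, of which 0 had an unadjusted p under 0.05. The part of these markers in the levels of the 5 genes was not tested.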

How the data were processed

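RNA from sorted progenitors was hybridised to single-colour Illumina bead arrays. The authors deposited a table of non-normalized intensity values with a detection p-value per probe, exported with GenomeStudio 2010.1 per the submitters' processing notes. A second deposited table holds processed intensity values on a linear scale, used only as an alternative with values under 16 set to 16. Intensities were corrected and quantile normalised with neqc (limma 3.58.1, R 4.3.3), with background taken from the detection p-values and an offset of 16, and turned into log2 values, so differences of dim genes are understated. Of 25697 probes, 12482 were detected (p under 0.01) in at least 4 arrays. Symbols came from the platform annotation, updated through gene numbers: 23978 probes had 1 symbol and 1719 none. The brightest detected probe stood for a gene, which gave 8658 genes.

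Chips 6 and 7 hold the same genotypes at the same positions. Their arrays correlated at a median of 0.491 after group means were removed, against at most 0.122 for other chip pairs, so each pair was averaged and counted as 1 sample. For 8 of 12 arrays the partner was the best match and 2 of 6 pairs differed in inferred sex, so the pairing is uncertain, and every array as its own sample is an alternative. The pairs that differed were replicates 6 and 7 of the Rbpj;MyoD mutant and replicates 3 and 4 of the MyoD heterozygote. These are unlikely to be repeats of 1 embryo. limma (lmFit, eBayes) was fitted on all genes with genotype and chip set as terms (31 residual degrees of freedom, 12 on chip sets 1 and 2), with Benjamini-Hochberg adjustment over all genes and calls at an adjusted p under 0.05. Intervals are 95%.

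The 5 genes and the lists were chosen with earlier results of these data known. Named genes are the 5 genes, Myod1, Rbpj and Maml1 as checks, the next 3 genes in the contrast that chose the set, the 3 tested genes most correlated with each gene, up to 3 called genes per list, and called markers. Genes ranked between the members, and further called list genes, were named after their values were seen. Maml1 was not called in either tested step. Alternatives covered normalisation, offset, detection filter, probe choice, chip term, chip sets, sex and each sample left out. Precision is limited by the number of arrays. The procedure was tested on simulated data. Promoter letters are from RefSeq (GRCm38.p6).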

Additional observations from a re-analysis of the deposited data

Results flagged for a closer look

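Of 15 combinations of a gene and a genotype with 4 to 10 samples, 1 had a sample far from the rest. Chodl in Rbpj;MyoD mutant replicate 3 had a log2 level of 9.34, against 10.36 in the nearest of the other 5 samples, a gap that took 0.818 of the group's range, above the 95% limit of Dixon's test for 6 samples. Chance alone gives about 1 in 20 such groups. This sample belongs to the genotype that chose the genes and enters none of the tested values of Chodl except through the chip set term and the shared estimate of the spread.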

How the results depend on the processing

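No gene of the set changed direction past the threshold in any alternative. In the comparisons among the DnMaml;MyoD mutant, the MyoD mutant and wild type, 796 of 820 gene-by-alternative results stayed on their side of the threshold, 18 lost the call and 6 gained it, and 819 were below 0. With arrays scaled to a common median in place of quantiles, the genes called were 353 for the DnMaml;MyoD against the MyoD mutant (763 otherwise), 1171 for the MyoD mutant against wild type (1914), 1097 for the DnMaml;MyoD mutant against wild type (1939), 1 for the heterozygote (0), and on chip sets 1 and 2 46 (201, with 2 of the 5 genes called lower) and 276 (1216, with Dpysl5 lost at adjusted p = 0.194). There Sim2 and Tmem255a had adjusted p of 0.0574 and 0.104 in the first of these. This scaling moved the share of calls that were higher to 68.4% from 48.5% in the MyoD mutant against wild type, to 79.3% from 50.1% on chip sets 1 and 2, and to 82.6% from 72.1% in the DnMaml;MyoD against the MyoD mutant there. The median of all genes was -0.13 and 0.14 in those chip set comparisons. With no chip term the counts were 481, 1170 and 1175. On chip sets 4, 5 and 6+7 alone, 3 of the 5 genes were called lower in the DnMaml;MyoD against the MyoD mutant, and 846 and 1099 genes in the other comparisons. Without chip set 2 the counts were 444 (3 of the 5 genes), 885 and 1066, and without chip set 5 391 for the first. The heterozygote had 6 calls without chip set 6+7.

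Leaving out 1 sample at a time gave 509 to 919 genes for the DnMaml;MyoD against the MyoD mutant (4 to 5 of the set), 1628 to 2071 for the MyoD mutant against wild type (3 to 5 of the set, 5 without MyoD mutant replicate 4), 0 to 6 for the heterozygote, and 127 to 241 (2 to 5 of the set) for the DnMaml;MyoD against the MyoD mutant on chip sets 1 and 2. Replicate numbers were not taken as pairing, since in no comparison were all same-numbered pairs correlated over 0.1 (range -0.523 to 0.441). Of these pairs 6 of 7 were over 0.1 between Rbpj;MyoD and DnMaml;MyoD (median 0.285), 5 of 8 for the DnMaml;MyoD mutant against wild type (median 0.16) and 0 of 4 for the heterozygote. With the replicate block in place of chip the counts were 1416, 2216, 1218 and 447 for the heterozygote, of which 1 was in the set (Cck, -0.91, adjusted p = 0.0367), and Dpysl5 in the MyoD mutant against wild type was at -0.33 (adjusted p = 0.133). With an offset of 50, Dpysl5 in the Rbpj;MyoD mutant against wild type was at -2.41 (-2.81 otherwise). On chip sets 1 and 2 with only the groups compared, Tmem255a had an adjusted p of 0.0601. With a common median several other genes of the text kept their direction and missed the threshold. In the DnMaml;MyoD against the MyoD mutant these were Dcn (adjusted p = 0.245, and 0.0511 with the authors' processed values), Egfl7 (0.187) and Acta2 (0.144). In the MyoD mutant against wild type they were Arnt (0.141), Mef2a (0.0629), Ngfr (0.244) and Met (0.103). The cause of these shifts was not tested. Dim signal limits Dpysl5 in the Rbpj;MyoD arrays, where its detection p reached 0.0702.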
